A study of Arabidopsis thaliana with 12 samples.

Results

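The response to abscisic acid (ABA) of Arabidopsis seedlings labelled gem1 was described over all measured loci. It was taken from 4 of the 12 arrays of the study, 2 of gem1 seedlings given ABA and 2 of gem1 seedlings given no treatment, paired by the replicate number in their labels. The gem1 line carries a T-DNA insertion and is in the Col-0 accession, and whole seedlings were harvested at 10 days of age. The treated group received 100 μM ABA for 2 hours and the untreated group received nothing. The other 8 arrays held the same pair of groups for seedlings that overexpress GEM from the 35S promoter, and for wild-type Col-0 seedlings, with 2 biological replicates in each group. The labels name no mock treatment, so ABA, the handling of the plates and the hours passed cannot be told apart in any response given here. Each value is a log2 expression value, and differences are ABA-treated minus untreated on that log2 scale.

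ABA is the hormone by which plants limit water loss and hold back germination and growth. It is bound by receptors of the PYR/PYL family, which then block clade A protein phosphatases of type 2C (PP2Cs). Freed from these phosphatases, SnRK2 kinases phosphorylate transcription factors of the ABI5/ABF type, and these bind the promoters of stress genes such as those for late embryogenesis abundant (LEA) proteins and dehydrins.

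GEM (GL2-EXPRESSION MODULATOR, AT2G22475, chromosome 2, 9541401 to 9545010 by the array annotation, for which no genome build was found) encodes a GRAM domain protein of epidermal cell fate. Its brighter feature read 14.44 and 14.59 in ABA-treated gem1, against 14.38 and 14.61 in untreated gem1. The same feature read 15.73 and 15.74 in ABA-treated overexpressor seedlings and 14.38 and 14.40 in ABA-treated wild type. It read 14.12 and 14.48 in untreated wild type. GEM was therefore not lower on the arrays labelled gem1 than on the wild-type arrays, and where its probes lie relative to the insertion was not examined. The second GEM feature read 11.33 and 11.53 in ABA-treated gem1, against 11.16 and 11.62 in untreated gem1. In the overexpressor this feature read 11.98 and 9.38 with ABA and 11.36 and 9.56 untreated, with the replicates far apart. In wild type it read 9.32 and 9.54 with ABA and 9.38 and 9.65 untreated, below every gem1 array. The genotypes were not tested against each other for GEM level. ABA left no detectable difference on either feature in gem1, with log2 differences of 0.02 (SE 0.11, adjusted p = 0.96) and 0.04 (SE 0.77, adjusted p = 0.986). AGP2, the arabinogalactan protein gene 9538197 to 9538879 on the same chromosome, did rise in gem1, by 1.42 (SE 0.25, adjusted p = 0.0204).

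The array medians lay between 12.16 and 12.22, and single values ran from 6.99 to 15.95. In untreated gem1, 3642 loci (11.2%) averaged over 15, where little room is left for a rise. All 9 leaf photosynthesis markers averaged between 14.80 and 15.89 in both gem1 groups, and 8 of them averaged over 15 without treatment. Their mean log2 values were 15.72 and 15.78 in ABA-treated gem1 and 15.72 and 15.80 in untreated gem1. So near the top of the scale, these values cannot show whether leaf content changed. Means of the 7 root markers were 14.28 and 14.11 in ABA-treated gem1, against 14.77 and 14.44 in untreated gem1. The 6 flower and pollen markers, which seedlings should lack, averaged between 7.91 and 11.61 in ABA-treated gem1 and between 7.93 and 11.28 in untreated gem1, and none passed the test. In RNA from whole seedlings, fewer cells of a type and less RNA per cell cannot be told apart.

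After ABA, 1811 of the 32627 loci changed in gem1 (limma, adjusted p under 0.05), which is 5.55% of all loci. Of these, 1213 rose (3.72% of all loci) and 598 fell (1.83%). The rises were larger than the falls, with a median log2 difference of 1.18 among the rises and -0.88 among the falls. Rises of 8-fold or more numbered 85, against 1 such fall, and changes of 4-fold or more were 256 rises and 31 falls. The 2 ABA-treated arrays lay above both untreated arrays at 1187 of the 1213 rises, and below both at 570 of the 598 falls. Over all loci, with or without a passed test, the ABA-treated arrays lay wholly above the untreated ones at 13.3% and wholly below at 19.1%. A total of 640 rises and 337 falls had no gene symbol.

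The number of loci called rests on the replicate pairing and on the spread shared by all 12 arrays. Without the replicate number in the fit, 475 loci passed, 386 of them rises and 89 falls. In a limma fit of the 4 gem1 arrays alone, which leaves 1 residual degree of freedom, 0 loci passed after adjustment and 4239 had an unadjusted p under 0.05. Leaving out gem1 arrays 1 at a time left 348 loci without ABA-treated replicate 2, 591 without ABA-treated replicate 1, 584 without untreated replicate 2 and 1085 without untreated replicate 1. Of the genes that follow, LEA7, RD20, MYB102, PYL6, PYR1, ABI1, ABF3, ABCG31, RCI2B, ERD7, XERO1, HB-7, SWEET2, SWEET1, IAA6, AUX1, ACS2, RHS13, MGP, RHL41 and AT5G13200 passed in at most 4 of the 12 fits that left out 1 array of the study.

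Both replicate pairs moved the same way at all 1213 rises and all 598 falls. The calls were made from these same pairs, so this agreement was nearly built in. Over all loci, the differences of the replicate pairs had a Pearson correlation of 0.63. The pairs nevertheless differed in size among the rises, where the median difference was 1.01 in replicate 1 and 1.32 in replicate 2, and replicate 2 gave the larger rise at 945 of 1213 loci. The gap lay between the untreated arrays. Among the rises, untreated replicate 1 stood above untreated replicate 2 at 918 loci with a median gap of 0.32, while ABA-treated replicate 1 stood above ABA-treated replicate 2 at 600 loci with a median gap of 0.00. Among the falls, the pairs had medians of -0.85 and -0.84. Over all loci the median difference was -0.02 in replicate 1 and -0.07 in replicate 2.

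**Figure D1:**
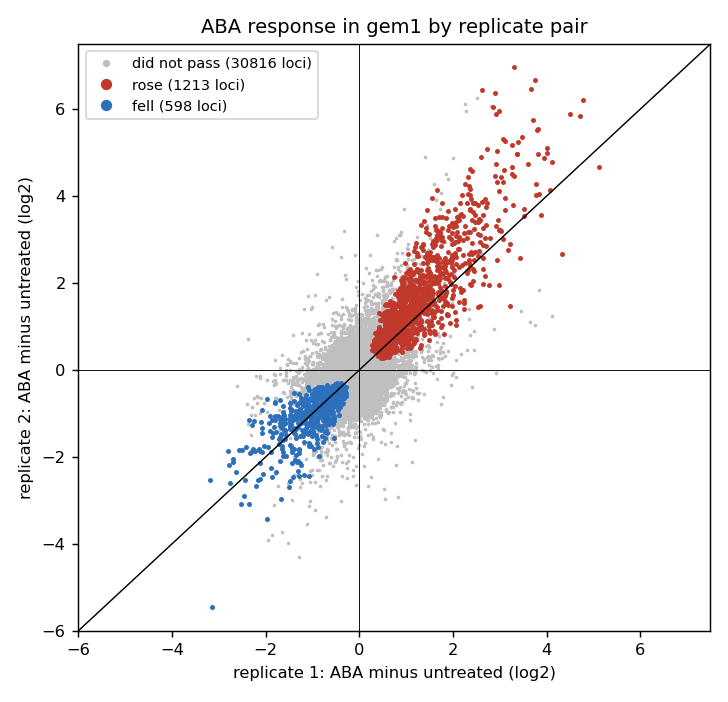
Log2 difference of ABA-treated minus untreated gem1 in replicate 1 (horizontal) and replicate 2 (vertical), 1 point per locus, with the 1213 rises, the 598 falls and the loci that did not pass. The diagonal marks equal differences, and most rises lie above it, since replicate 2 gave the larger rise at 945 of them.

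NAC019, a stress-induced NAC transcription factor gene on chromosome 1 (19697004 to 19698482), showed the largest rise among loci with a symbol. It read 13.77 and 14.32 in ABA-treated gem1, against 8.99 and 8.12 in untreated gem1, a log2 difference of 5.49 (SE 0.69, adjusted p = 0.00637). The treated arrays lay far above the untreated ones. HAI3, which encodes a clade A PP2C, read 15.25 and 15.16 with ABA, against 10.54 and 9.32 without, a difference of 5.28 (SE 0.36, adjusted p = 0.000827). SWEET15, a sucrose exporter gene, read 15.30 and 15.64 with ABA, against 11.54 and 8.97 without. Its difference was 5.22 (SE 0.72, adjusted p = 0.00853), and the gap between its untreated arrays was far wider than that between its treated ones. The U-box ubiquitin ligase gene PUB19 showed the same spread, at 15.34 and 15.53 with ABA and 12.04 and 8.55 without, and rose by 5.14 (SE 1.02, adjusted p = 0.0328).

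The rest of the 15 largest rises spanned several functions. Transport was represented by SWEET4, which rose by 5.06 (adjusted p = 0.0334). Protective products were represented by LEA7 with 4.54, by GOLS2 with 4.47, which makes galactinol for raffinose sugars, and by the caleosin gene RD20 with 4.45. Regulators of transcription were the zinc finger gene SOM with 4.66, known as a repressor of seed germination, the heat stress factor gene HSFA6A with 4.50, and MYB121, MYB102 and MYB41 with 4.44, 4.41 and 4.32. EDL3, an F-box gene with a role in ABA signalling, rose by 4.18, and the kinase gene MAPKKK18 by 4.17. At 14 of these 15 genes untreated replicate 1 stood above untreated replicate 2, the exception being HSFA6A with 9.10 and 9.33. Without the replicate number in the fit, 8 of the 15 kept their call.

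Among loci with a symbol and non-overlapping arrays, the largest fall was that of PYL6, an ABA receptor gene on chromosome 2 (16844864 to 16845934). It read 9.68 and 9.33 in ABA-treated gem1, against 12.83 and 14.78 in untreated gem1, a log2 difference of -4.30 (SE 0.92, adjusted p = 0.0417). The next in that group was another receptor gene, PYL4, with 13.45 and 12.36 with ABA and 15.42 and 15.77 without, a difference of -2.69 (SE 0.50, adjusted p = 0.0257). Among loci without a symbol, 3 fell by more than PYL4, namely AT3G26610 (-2.85), AT2G01900 (-2.81) and AT3G13760 (-2.72).

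The other large falls came from genes of several functions. FRU, also called FIT, which encodes the bHLH activator of iron uptake in the root epidermis, read 11.71 and 11.59 with ABA and 13.38 and 14.55 without, and fell by 2.31 (SE 0.45, adjusted p = 0.0302). NAXT1, a nitrate efflux transporter gene, fell by 2.43, and ATSDI1, a gene known for its induction by sulfur deficiency, fell by 2.1. CYP735A2, the hydroxylase gene for trans-zeatin cytokinins, fell by 2.31, and the purine permease gene PUP4 by 2.00. Of the wall-modifying genes, XTH31 fell by 2.11 and the expansin gene EXPA1 by 2.07. RBOHB, an NADPH oxidase gene, was among the most even of these, at 10.43 and 10.09 with ABA and 12.61 and 12.62 without (-2.35, SE 0.26, adjusted p = 0.00378). The remaining large falls were ST4B (-2.49), CYP702A5 (-2.23), GIK (-2.16), CYP716A2 (-2.12) and CYP81F3 (-2.04). Without the replicate number in the fit, 5 of the 15 largest falls kept their call.

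**Figure D2:**
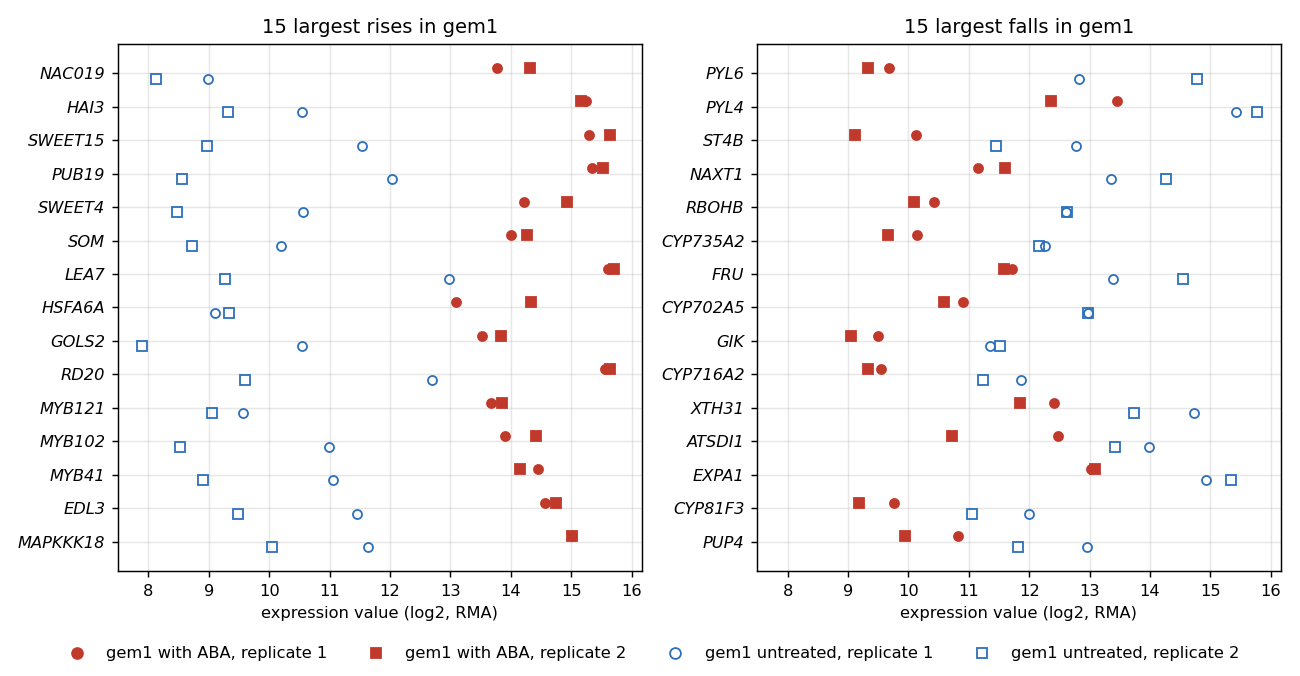
Log2 expression values on each gem1 array for the 15 largest rises (left) and the 15 largest falls (right) among loci with a symbol and non-overlapping arrays. Filled symbols are ABA-treated and open symbols untreated seedlings, circles replicate 1 and squares replicate 2; among the rises the open symbols are spread wider than the filled ones, as at PUB19 with 12.04 and 8.55.

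Of the 14 ABA receptor genes, 4 fell (PYL6, PYL4, PYR1 and PYL1) and 1 rose (PYL7), that is 28.6% falling and 7.14% rising, against 1.83% and 3.72% of all loci. The other 9 did not pass, 7 of the 14 had a positive difference, and the median was -0.27, against -0.06 over all loci. PYR1 read 14.33 and 14.00 in ABA-treated gem1, against 15.12 and 15.53 in untreated gem1, a difference of -1.16 (SE 0.24, adjusted p = 0.0355). PYL1 read 14.73 and 14.82 with ABA and 15.23 and 15.47 without, a difference of -0.57 (SE 0.10, adjusted p = 0.0199). PYL7 went the other way, at 13.76 and 13.49 with ABA and 13.01 and 12.67 without (0.79, SE 0.08, adjusted p = 0.003).

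PYL5 had the third largest negative difference of the family, -2.33, but did not pass (SE 0.83, adjusted p = 0.189), since its untreated arrays read 13.57 and 15.26 and its treated ones 12.46 and 11.71. PYL2 (-0.94, adjusted p = 0.111) and PYL8 (-0.90, adjusted p = 0.153) also had non-overlapping lower treated arrays without passing. The other receptors, PYL3 and PYL9 to PYL13, had differences between 0.03 and 0.37, and PYL3, PYL10, PYL11 and PYL13 read below 9 on every gem1 array. PYL11 and PYL12 are near neighbours in sequence and place, so their signals may be shared.

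The clade A PP2C genes, whose products the ABA-bound receptors block, had higher values throughout. All 9 had treated arrays wholly above the untreated ones, as had 13.3% of all loci, 4 (44.4%) rose, against 3.72% of all loci, and their median difference was 1.03. Besides HAI3, the phosphatase gene HAI2 rose by 3.19 (SE 0.52, adjusted p = 0.0154) and ABI2 by 2.62 (SE 0.45, adjusted p = 0.0191). ABI1 read 15.66 and 15.80 in ABA-treated gem1, against 14.97 and 14.42 in untreated gem1, a rise of 1.03 (SE 0.21, adjusted p = 0.0354).

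HAI1 had the second largest difference of the phosphatase genes, 4.12, without passing the test (SE 1.19, adjusted p = 0.108). It read 15.88 and 15.80 with ABA but 13.60 and 9.84 without, so that the pairs gave 2.28 and 5.96. HAB1 missed the threshold on its brighter feature (0.89, adjusted p = 0.0582), which averaged 15.81 with ABA near the top of the scale, and passed on the other, with means of 15.58 with ABA and 13.3 without (2.28, SE 0.29, adjusted p = 0.0067; for the dimmer feature of a gene, here and below, p was adjusted in a fit of every feature). HAB2 (0.70, adjusted p = 0.116), AHG1 (0.89, adjusted p = 0.114) and PP2CA (0.51, adjusted p = 0.133) did not pass either. PP2CA stood at 15.53 and 15.18 in untreated gem1, close to the top of the scale.

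Among the 10 SnRK2 kinase genes, 2 rose and none fell, that is 20.0% against 3.72% of all loci rising, with a median of 0.07. SNRK2.7 read 15.32 and 15.39 in ABA-treated gem1, against 13.28 and 12.45 in untreated gem1, a difference of 2.49 (SE 0.29, adjusted p = 0.00496). OST1 (SnRK2.6), the kinase of ABA-driven stomatal closure, read 15.08 and 15.06 with ABA and 14.27 and 14.25 without. Its rise of 0.81 (SE 0.08, adjusted p = 0.00241) was small and the replicates were nearly equal, and its second feature gave 1.27 (adjusted p = 0.00163). The closely related SNRK2.2 and SNRK2.3 both had a difference of -0.07 (adjusted p = 0.732 and 0.781), and SNRK2.9 missed the threshold at 0.93 (adjusted p = 0.141). SNRK2.10 had 0.35 on both of its features, of which the brighter did not pass (adjusted p = 0.0741) and the dimmer did (adjusted p = 0.0407).

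Of the 10 genes for ABA transcription factors, ABI5, ABF2, ABF3 and ABF4 rose (40%, against 3.72% of all loci), none fell and the median was 0.28. ABI5, a bZIP factor of seed and seedling arrest, read 14.69 and 14.54 in ABA-treated gem1, against 12.47 and 11.55 in untreated gem1, a difference of 2.61 (SE 0.25, adjusted p = 0.00241). ABF2 rose by 1.2 (adjusted p = 0.0125), ABF3 by 1.04 (adjusted p = 0.0438) and ABF4 by 0.77 (adjusted p = 0.0186). These 3 values are from the brighter feature of each gene, near the top of the scale for ABF2 and ABF3 (means of 15.46 and 15.65 with ABA). The dimmer features gave larger rises, 2.36 for ABF2 (adjusted p = 0.0271), 3.23 for ABF3 (adjusted p = 0.0435) and 1.31 for ABF4 (adjusted p = 0.016). ABI3 and ABI4, known from seeds, had differences of 0.02 and 0.19 with overlapping arrays (adjusted p = 0.973 and 0.494), and ABF1 one of 0.29 (adjusted p = 0.229). AREB3 (0.16), EEL (0.27) and DPBF2 (0.03) did not pass.

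**Figure D3:**
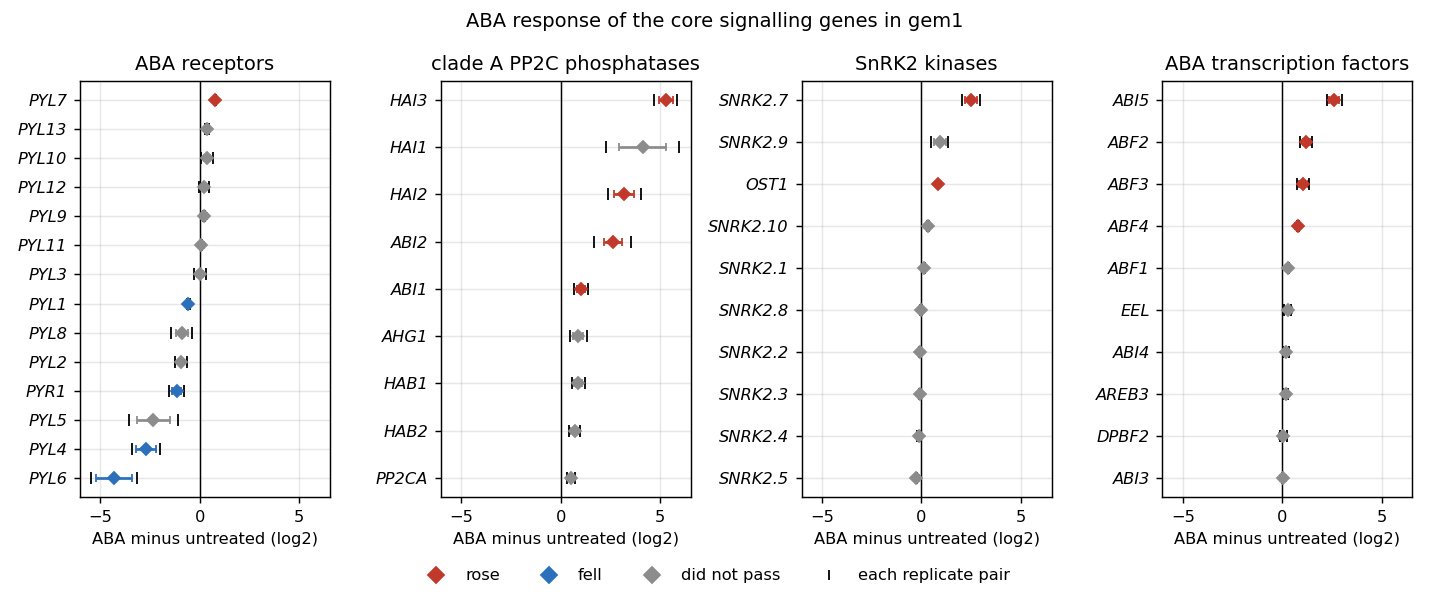
Log2 difference of ABA-treated minus untreated gem1 for every ABA receptor, clade A PP2C, SnRK2 kinase and ABA transcription factor gene. Diamonds are the fitted differences with the SE as bar, coloured by test result, and ticks are the 2 replicate pairs; 4 receptors fell while 4 phosphatases, 2 kinases and 4 transcription factors rose, and HAI1 has the widest ticks at 2.28 and 5.96.

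Genes whose products restrain ABI5 or mark ABA proteins for breakdown had a median of 0.11. They rose at 3 of 9 members (33.3%, against 3.72% of all loci) and fell at none. These 3 were the ABI5-binding protein genes AFP3 (2.38, adjusted p = 0.0321), AFP2 (1.55, adjusted p = 0.0136) and TMAC2 (1.51, adjusted p = 0.031). TMAC2 read 15.25 and 15.10 with ABA, against 13.31 and 14.01 without, with replicate 1 lower among the untreated arrays. The largest difference of the list was that of AFP1, at 4.45, which did not pass (SE 1.01, adjusted p = 0.0513). It read 15.50 and 15.61 with ABA and 12.68 and 9.54 without. In the MAPKKK17/18 kinase module, 3 of 7 genes rose (42.9%), namely MAPKKK18, MAPKKK17 (2.73, adjusted p = 0.0084) and MPK7 (0.73, adjusted p = 0.0257).

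Both ends of ABA metabolism held rises, at 10% of the synthesis genes and 37.5% of the breakdown and conjugation genes, against 3.72% of all loci. Of 10 synthesis genes, NCED3, for the rate-limiting cleavage of carotenoids, was the 1 that rose, at 15.05 and 14.82 in ABA-treated gem1, against 13.38 and 12.17 in untreated gem1 (2.16, SE 0.36, adjusted p = 0.0166). Of 8 genes for breakdown and conjugation, 3 rose, all encoding ABA 8'-hydroxylases, and the median was 0.89. CYP707A1 read 15.67 and 15.68 with ABA and 12.75 and 12.37 without, a difference of 3.11 (SE 0.14, adjusted p = 0.000267). It was among the most even large responses in the line. CYP707A4 rose by 2.67 (SE 0.28, adjusted p = 0.00328) and CYP707A2 by 2.45 (SE 0.43, adjusted p = 0.0206). Among 7 ABA transporter genes, 28.6% rose and 14.3% fell, against 3.72% and 1.83% of all loci. The exporter gene ABCG25 (1.31, adjusted p = 0.0252) and ABCG22 (1.04, adjusted p = 0.0243) rose, and ABCG31 fell by 0.69 (adjusted p = 0.0389).

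LEA proteins, which protect dry cells, formed the family with the largest share of rises among those named in the array annotation. Of 39 LEA loci, 16 rose (41.0%, against 3.72% of all loci) and none fell, with a median of 0.78. AT3G17520 read 15.62 and 15.50 in ABA-treated gem1, against 11.92 and 9.76 in untreated gem1, a difference of 4.72 (SE 0.52, adjusted p = 0.00367). Of 7 dehydrin genes, 3 rose (42.9%). RAB18 read 15.70 and 15.64 with ABA and 13.71 and 12.99 without (2.32, SE 0.26, adjusted p = 0.00397), XERO1 rose by 1.35 and ERD10 by 0.91, and 4 of the 7 stood over 15 without treatment.

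The classical RD, KIN and COR stress genes rose at 6 of 17 members (35.3%, against 3.72% of all loci) and fell at none. Their median was 0.53, and 9 of the 17 averaged over 15 without treatment. RD29B, a standard reporter of ABA signalling, read 15.61 and 15.75 in ABA-treated gem1, against 13.62 and 12.36 in untreated gem1, a rise of 2.69 (SE 0.31, adjusted p = 0.00483). KIN1 rose by 3.96 (SE 0.37, adjusted p = 0.00225), though it lies beside the near-identical KIN2 and their signal may be shared. ADH1 rose by 3.03 (adjusted p = 0.00331), RCI2B by 1.41 and ERD7 by 0.96.

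Seed genes fell into separate kinds. Of 20 genes for seed storage, oil bodies and late embryogenesis, 4 rose (20%, against 3.72% of all loci). These were all LEA-type genes, namely LEA18 (3.1), ECP63 (2.91), EM6 (2.41) and EM1 (2.31). ECP63 read 13.07 and 12.93 in ABA-treated gem1, against 10.28 and 9.89 in untreated gem1 (SE 0.17, adjusted p = 0.000469). No storage protein or oleosin gene passed. The cruciferin gene CRA1 had a difference of -0.83 (adjusted p = 0.725), the albumin gene SESA3 one of -0.53 (adjusted p = 0.353) and the oleosin gene OLEO2 one of 0.39 (adjusted p = 0.851). The median over the 20 genes was 0.04 in gem1, against 0.25 in the overexpressor and 1.25 in wild type, with wild-type pairs of 0.45 and 1.33. Of the 20, 3 had an unadjusted p under 0.05 for the difference from wild type and 0 an adjusted one.

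Stress NAC factor genes responded at 9 of 13 members, all upwards (69.2%, against 3.72% of all loci), with a median of 1.97. NAC6 (also ORE1), a regulator of leaf senescence, read 14.25 and 14.44 in ABA-treated gem1, against 11.15 and 10.49 in untreated gem1, and rose by 3.53 (SE 0.29, adjusted p = 0.00162). NAP rose by 3.29, NAC055 by 3.0, RD26 by 2.63 and NAC032 by 2.02. Over the whole NAC family, 20 of 100 loci rose and none fell.

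Other transcription factor groups moved in part, with rises at 25% of class I HD-Zip genes and 30% of CBF and DREB2 genes, against 3.72% of all loci. Among 16 class I HD-Zip genes, 4 rose, led by HB21 (3.01, SE 0.22, adjusted p = 0.00106) with 13.14 and 12.58 with ABA and 10.56 and 9.14 without. HB-12 rose by 2.59, HB-7 by 2.42 and HB40 by 2.12, while the median of the 16 was -0.06, that of all loci. Among 10 CBF and DREB2 genes, CBF4 (2.43, adjusted p = 0.00221), CBF1 (1.99, adjusted p = 0.00489) and DREB2A (1.46, adjusted p = 0.00241) rose, and TNY fell by 1.63 (adjusted p = 0.00842). CBF1 has near-identical neighbours, so its signal may be shared with them.

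In the SWEET, osmolyte and HVA22 lists some genes rose and none fell. Rises made 35.3%, 30% and 40% of these lists, against 3.72% of all loci. The wider annotated family of sugar and amino acid transporters had 11 rises and 5 falls among 117 loci. Of 17 SWEET genes, 6 rose, namely SWEET15, SWEET4, SWEET13, SWEET5, SWEET2 and SWEET1. SWEET13 read 12.53 and 11.81 in ABA-treated gem1, against 10.51 and 9.52 in untreated gem1, a difference of 2.16 (SE 0.10, adjusted p = 0.000267). SWEET1 passed with a difference of only 0.46 (adjusted p = 0.0433) although its arrays overlapped. Of 10 genes for proline and raffinose metabolism, the 3 that rose were all galactinol synthases, GOLS2, GOLS4 (3.25, adjusted p = 0.00763) and GOLS1 (1.14, adjusted p = 0.00392), and 6 of the 10 averaged over 15 without treatment. Of 5 HVA22 genes, named for an ABA-induced barley gene, HVA22B rose by 3.5 (adjusted p = 0.0141) and HVA22E by 1.47 (adjusted p = 0.00725).

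The 8 NADPH oxidase genes split by member, with 25% rising and 12.5% falling, against 3.72% and 1.83% of all loci. RBOHF, which makes reactive oxygen in guard cell ABA signalling, rose by 0.93 (SE 0.16, adjusted p = 0.0207) and RBOHE by 1.36 (SE 0.18, adjusted p = 0.00773), while RBOHB fell. RBOHD, the other guard cell oxidase, read lower with ABA but did not pass (-0.79, adjusted p = 0.162). Of 15 guard cell and stomatal genes, GORK, the outward potassium channel of guard cells, was the 1 that rose (6.67% of the list, against 3.72% of all loci; 2.2, SE 0.37, adjusted p = 0.0179), at 13.76 and 13.64 with ABA and 12.20 and 10.81 without, and none fell.

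Of 19 epidermal fate genes, the pathway in which GEM is known to act, 1 rose and 1 fell (5.26% each, against 3.72% and 1.83% of all loci), and the median was -0.27, against -0.06 over all loci. CPL3, for a single-repeat MYB that represses trichomes and promotes root hairs, read 11.23 and 11.64 in ABA-treated gem1, against 9.92 and 9.34 in untreated gem1, a difference of 1.80 (SE 0.31, adjusted p = 0.0183). MYB66 (WEREWOLF), which sets the non-hair fate in the root, read 9.54 and 9.15 with ABA and 10.52 and 10.29 without, a difference of -1.06 (SE 0.21, adjusted p = 0.0337). Neither gene's arrays overlapped.

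On the brighter feature of each gene, none of the partners and targets named here passed. GL2, the homeobox target of the MYB66 complex that GEM is named for, read 12.82 and 12.46 in ABA-treated gem1, against 12.79 and 13.01 in untreated gem1 (-0.26, SE 0.22, adjusted p = 0.649). CPC came closest, at -0.58 (adjusted p = 0.0524), followed by TTG2 at 0.50 (adjusted p = 0.0657) on its brighter feature, whose dimmer feature did pass (0.45, adjusted p = 0.0487), and TRY at -0.81 (adjusted p = 0.0869). The other members, MYB0 (GL1), GL3, EGL3, TTG1, ETC1, ETC2, MYB23, SUB, CDT1A, RHD6, RSL1, RSL2 and RSL4, had differences between -0.45 and -0.01. GEM's own family of 8 GRAM domain loci held 1 rise (12.5%, against 3.72% of all loci). This was AT5G13200, at 14.47 and 14.44 with ABA and 12.76 and 11.97 without (2.09, SE 0.43, adjusted p = 0.0354).

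Root tissue genes held falls. Of 14 root hair growth genes, 3 fell (21.4%, against 1.83% of all loci) and none rose, with a median of -0.79. The pair medians of this list were uneven, at -1.34 in replicate 1 and -0.41 in replicate 2. Of 11 genes of the endodermis and Casparian strip, 5 fell (45.5%) and 1 rose (9.09%, against 3.72% of all loci), with a median of -0.40. RHS13, a proline-rich wall protein gene specific to root hairs, read 11.82 and 12.20 in ABA-treated gem1, against 13.85 and 13.96 in untreated gem1 (-1.90, SE 0.38, adjusted p = 0.0325). RHS19 fell by 1.49 and RHS15 by 1.34. CASP2, for a scaffold protein of the Casparian strip, read 12.15 and 11.96 with ABA and 13.23 and 13.00 without (-1.06, SE 0.10, adjusted p = 0.00225).

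CASP4 (-1.25), MGP (-1.40), SCR (-0.56) and ESB1 (-0.40; -0.15 and adjusted p = 0.815 on a dimmer feature) fell as well, whereas CASP5 rose by 0.84 (SE 0.08, adjusted p = 0.00257), at 12.80 and 13.00 with ABA and 11.94 and 12.17 without. The general root markers moved with these groups. Of 7, 3 fell (42.9%, against 1.83% of all loci), namely AKT1 by 0.70, PHO1 by 0.67 and SCR by 0.56. SCR, SHR and CASP1 were in both lists. PYK10 stood at the top of the scale in both groups with a difference of 0.02, and the part of the root markers in the falls of root genes was not tested.

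Uptake genes of the root fell in small numbers, at 17.6% of the iron list and 14.3% of the nitrogen list, against 1.83% of all loci. Besides FRU, the nicotianamine synthase genes NAS1 (-1.71, adjusted p = 0.0227) and NAS2 (-1.23, adjusted p = 0.0268) fell among 17 iron genes, with a median of -0.37 and no rise. The iron list had pair medians of -0.89 in replicate 1 and -0.20 in replicate 2. IRT1, the iron transporter gene, had a difference of -1.90 that did not pass (adjusted p = 0.186). The ammonium transporter genes AMT1;3 (-1.71, SE 0.16, adjusted p = 0.00221) and AMT1;2 (-0.76, SE 0.09, adjusted p = 0.00493) fell among 14 nitrogen genes, of which none rose. AMT1;3 read 13.50 and 13.83 in ABA-treated gem1, against 15.22 and 15.53 in untreated gem1, without overlap.

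Genes of other hormones responded in both directions. Of 27 cytokinin genes, 3 fell (11.1%, against 1.83% of all loci) and none rose, with a median of -0.31 and pair medians of -0.66 and -0.14. The 3 that fell were CYP735A2, the root-to-shoot transporter gene ABCG14 (-1.59, SE 0.18, adjusted p = 0.00441) and the oxidase gene CKX4 (-1.21, SE 0.23, adjusted p = 0.0302). Of 21 gibberellin genes, 3 rose (14.3%, against 3.72% of all loci). They were GA2OX6, whose enzyme inactivates gibberellin (2.38, SE 0.23, adjusted p = 0.0023), the DELLA repressor gene RGL3 (1.27, adjusted p = 0.0042) and the receptor gene GID1B (0.69, adjusted p = 0.00852). GA2OX6 read 15.01 and 15.25 with ABA and 12.64 and 12.85 without.

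Of 22 auxin genes, IAA6 (1.14), WES1 (1.05) and DFL1 (0.39) rose, the last pair encoding enzymes that conjugate auxin, and the influx carrier genes LAX3 (-1.10) and AUX1 (-0.46) fell. With 1 array left out at a time, DFL1 passed in 0 of 12 fits and IAA6 in 4. Of 15 ethylene genes, the synthase gene ACS2 rose by 2.06 (adjusted p = 0.034) and the receptor gene ERS2 by 1.25 (adjusted p = 0.0325), while ACS5 fell by 1.60 and ACO1 by 0.57. Of 19 jasmonate genes, the repressor genes JAZ7 (1.59), JAZ1 (1.07), JAZ3 (1.02) and JAZ12 (0.42) rose and JAZ4 fell by 1.80 (adjusted p = 0.0161). JAZ12 passed in 0 of the 12 fits with 1 array left out, a dimmer JAZ1 feature had 1.03 without passing (adjusted p = 0.0634), and so had a dimmer JAZ4 feature with -0.26 (adjusted p = 0.631). The median of the jasmonate list was 0.33. Rising and falling shares were 13.6% and 9.09% for auxin, 13.3% each for ethylene, and 21.1% and 5.26% for jasmonate. Of all loci, 3.72% rose and 1.83% fell.

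Because the labels name no mock treatment, genes that answer touch and time of day were read beside these. Of 12 touch and rapid stress genes, 3 rose (25%, against 3.72% of all loci), namely ZAT6 by 1.70, CML37 by 1.34 and RHL41 by 0.66. The list had a median of 0.69 in gem1, with pair medians of 1.05 in replicate 1 and 0.22 in replicate 2. The pair medians were 0.83 and -0.15 in wild type, and 0.56 and -0.24 in the overexpressor. TCH2, TCH3 and TCH4 did not pass in gem1 (adjusted p = 0.89, 0.786 and 0.302). Of 17 clock genes, CCA1 (1.57, adjusted p = 0.0171) and BOA (1.82, adjusted p = 0.00681) rose although their arrays overlapped, making 11.8% of the list. CCA1 read 12.77 and 14.04 in ABA-treated gem1, against 10.89 and 12.77 in untreated gem1, so that the rise stands within each replicate pair. The part of handling and time in the ABA response was not tested. None of 6 reference genes passed, with a median of -0.01, but 5 of them averaged over 15 without treatment.

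The loci were also sorted by the family words of the array annotation, and shares are read against the 3.72% of all loci that rose and the 1.83% that fell. Beside the LEA, NAC and dehydrin families, MYB loci rose at 32 of 197 (16.2%) and fell at 8, AP2/ERF loci rose at 11 of 82 (13.4%) and fell at 2, and type 2C phosphatases rose at 7 of 60 (11.7%) with no fall. UDP-glycosyltransferases rose at 17 of 134 (12.7%) and fell at 3 (2.24%), glutathione transferases rose at 6 of 51 (11.8%) and fell at 3 (5.88%), and RING and U-box loci rose at 31 of 383 (8.09%) and fell at 9 (2.35%). AIRP2, a RING ligase gene of ABA signalling, rose by 2.95 (SE 0.40, adjusted p = 0.00838), and the glycosyltransferase locus AT2G36780 by 3.1 (SE 0.16, adjusted p = 0.000378). Beside GSTU4 (3.14), the transferase gene GSTU9 rose by 2.22 (SE 0.15, adjusted p = 0.000922), at 14.85 and 14.99 with ABA and 12.89 and 12.51 without.

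Some families fell more often than they rose. Auxin-responsive and SAUR loci fell at 10 of 99 (10.1%) and rose at 4, peroxidases fell at 10 of 110 (9.09%) and rose at 6, and bHLH loci fell at 6 of 87 (6.9%) and rose at 2. The family matched by annotation words for TIR-NBS-LRR disease resistance fell at 12 of 182 loci (6.59%, against 1.83% of all loci) and rose at 2. These 2, AT1G58170 and AT5G42510, are annotated as disease resistance-responsive, so the family does not hold TIR-NBS-LRR loci alone. AT5G38350 read 8.52 and 8.50 with ABA and 10.14 and 9.75 without (-1.44, SE 0.13, adjusted p = 0.00221), and its neighbour AT5G38340 fell by 1.67, with which it may share signal. Expansins moved both ways. Of 38, 5 fell, EXPA1, EXPA14 (-1.77) and EXPA8 (-1.71) most, and 4 rose, led by EXPA16, which read 15.43 and 15.59 with ABA and 12.79 and 13.26 without (2.49, SE 0.32, adjusted p = 0.00718).

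Within the cytochrome P450 family, 18 of 270 loci rose (6.67%) and 14 fell (5.19%). CYP94B3, whose enzyme inactivates jasmonoyl-isoleucine, rose by 3.89 (SE 0.34, adjusted p = 0.0019), at 14.55 and 13.87 in ABA-treated gem1, against 11.28 and 9.35 in untreated gem1. Of 104 ABC transporters, 9 rose (8.65%) and 7 fell (6.73%), with ABCG16 highest at 3.49 (adjusted p = 0.0207). The monolignol glycosyltransferase genes UGT72E2 (-1.75, adjusted p = 0.0161) and UGT72E1 (-1.56, adjusted p = 0.00405) fell. The smallest adjusted p of all loci belonged to AT1G52560, annotated as a small heat shock protein, at 5.9e-05. It rose by 3.61 (SE 0.10) with 14.85 and 13.16 with ABA and 11.34 and 9.44 without, so that the replicates differed far more than the pairs did. The heat shock protein family as a whole rose at 4 of 128 (3.12%), near the 3.72% of all loci.

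At the other end, 5 of 3856 transposable element loci rose and 4 fell (0.233% in all, against 5.55% of all loci), and their pair medians differed in sign, at 0.11 in replicate 1 and -0.38 in replicate 2. Transfer RNA loci showed the same split, at 0.12 and -0.64, and none of 169 passed. Pentatricopeptide repeat loci changed at 5 of 430, ribosomal protein loci at 2 of 377, of which 191 stood over 15 without treatment, and histone loci at 1 of 122. None of 29 aquaporin loci passed, a family too small to set apart from the 5.55% of all loci, and 12 of the 29 stood over 15 without treatment. Of 146 microRNA precursor loci, 1 rose and 1 fell. MIR824 (AT4G24415, chromosome 4, 12623554 to 12626253), precursor of the microRNA that targets the stomatal regulator AGL16, read 14.13 and 13.69 in ABA-treated gem1, against 11.13 and 10.46 in untreated gem1, a rise of 3.11 (SE 0.26, adjusted p = 0.00164). MIR163 fell by 1.00 (SE 0.15, adjusted p = 0.0129).

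**Figure D4:**
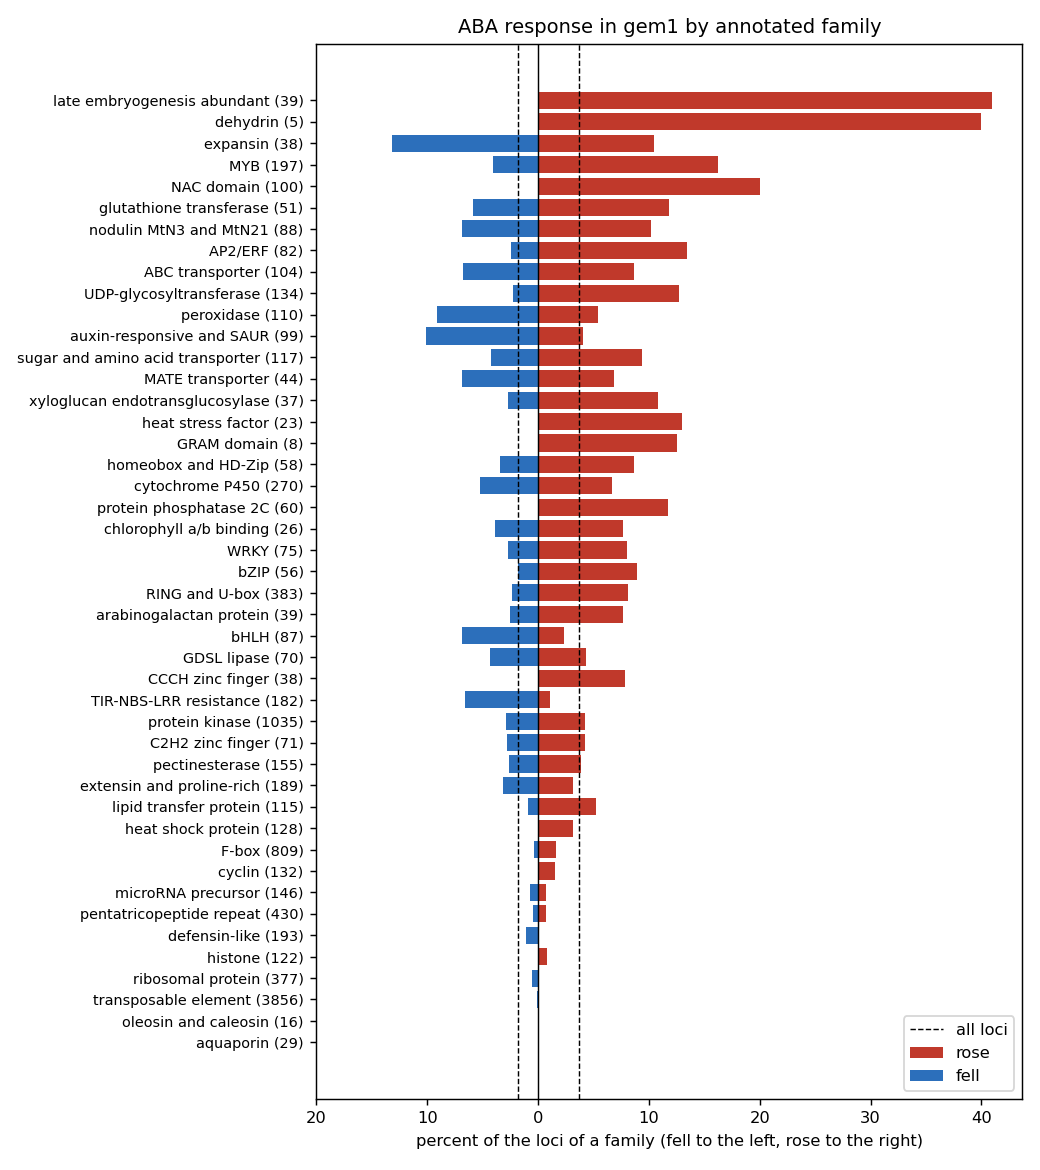
Share of the loci of each annotated family that rose (to the right) or fell (to the left) with ABA in gem1, with the number of loci in brackets. Dashed lines mark the shares over all loci, 3.72% rising and 1.83% falling; LEA loci rose at 41.0% and NAC loci at 20.0%, while transposable elements lie at the foot.

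The gem1 response was then set against those of the overexpressor and of wild type. With ABA, 1910 loci (5.85%) changed in the overexpressor and 1963 (6.02%) in wild type, by the same test. In the overexpressor 3.5% of all loci rose and 2.35% fell, and in wild type 3.33% rose and 2.69% fell. Of the 1213 gem1 rises, 978 were also rises in the overexpressor (80.6% of the gem1 rises and 85.6% of the overexpressor's) and 896 in wild type (73.9% of the gem1 rises and 82.5% of the wild type's). Of the 598 gem1 falls, 461 were shared with the overexpressor (77.1% and 60.0%) and 415 with wild type (69.4% and 47.3%). No locus passed in opposite directions between gem1 and either of the other genotypes. Rises in all 3 genotypes numbered 834 and falls 384. The 3 tests used the same estimate of the spread at each locus, so a locus of small spread passed more easily in every genotype. These shared counts are therefore not independent agreement. Of the 317 gem1 rises that did not pass in wild type, 312 had a positive difference there too, and of the 183 such falls 178 had a negative one.

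A test of the difference itself found no locus. For gem1 minus wild type, 0 of 32627 loci passed after adjustment, the smallest adjusted p was 0.783, and 886 loci (2.72%) had an unadjusted p under 0.05, of which 446 were positive and 440 negative. For gem1 minus the overexpressor, 0 passed and 423 (1.3%) had an unadjusted p under 0.05. Both counts lie below the 1631 loci that chance alone would give at this threshold, so neither is an excess. Why they are fewer was not tested. A missed threshold does not show that the responses were alike. The 95% interval of the difference between gem1 and wild type had a median half-width of 0.46 over all loci. Of the 1811 loci changed in gem1, 1262 (69.7%) had an interval that lay within a 2-fold difference either way. Across those 1811 loci the gem1 and wild-type responses had a Pearson correlation of 0.97, and across all loci 0.83, given as a description of genes that share replicate sets and arrays of 1 design. The 1811 loci were picked for their gem1 difference, which widens the range of values and can raise the correlation.

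**Figure D5:**
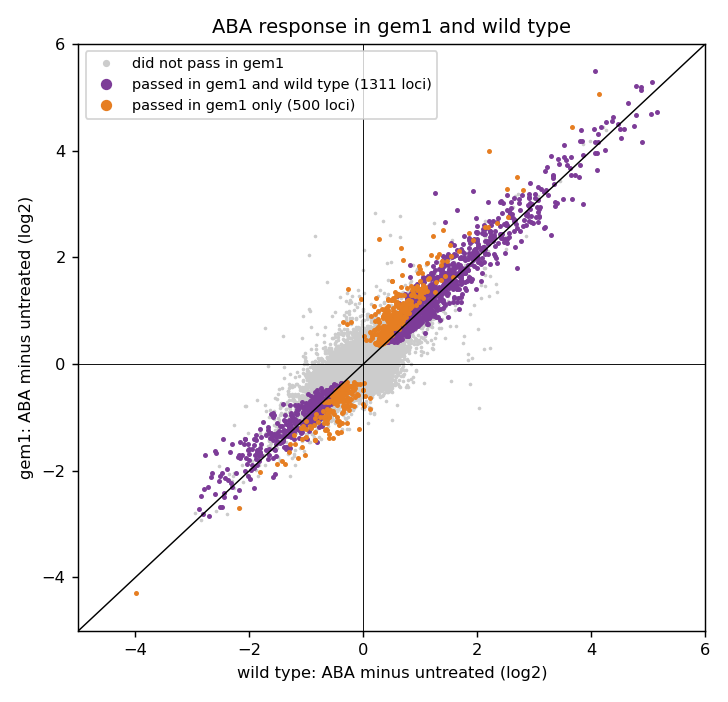
Log2 difference of ABA-treated minus untreated seedlings in gem1 (vertical) and in wild type (horizontal), 1 point per locus, coloured by whether a locus changed in gem1 and in wild type. The line marks equal responses; 500 loci passed in gem1 and not in wild type, and 490 of them lie on the same side of 0 in both.

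The loci with the smallest p for the difference from wild type are given as values, since none passed. Their 95% intervals make no allowance for this choice out of all loci, so they overstate how well these differences are known. FLR1, a leucine-rich repeat protein gene, rose in gem1 by 0.76 and had 0.28 in the overexpressor and -0.29 in wild type, so that gem1 minus wild type was 1.05 (SE 0.11, 95% interval 0.79 to 1.31, adjusted p = 0.783). It read 13.83 and 12.65 in ABA-treated gem1, against 13.04 and 11.92 in untreated gem1, and the rise is within pairs while the groups overlap. RNS1, a ribonuclease gene known for phosphate starvation, read 12.69 and 11.36 with ABA and 9.72 and 7.92 without. Its response was 3.21 in gem1, 2.31 in the overexpressor and 1.25 in wild type (gem1 minus wild type 1.95, 95% interval 1.11 to 2.8). RGF9, a root meristem peptide gene, fell in gem1 by 1.11, with differences of -1.05 in the overexpressor and -0.37 in wild type. UGT85A7 and AT5G05120 had differences of 0.22 and 0.51 in gem1, against -0.51 and -0.50 in wild type, and passed in neither. Against the overexpressor the smallest p belonged to AT3G28899, a locus of unknown function that fell in gem1 by 0.84 and had 0.21 in the overexpressor and 0.11 in wild type.

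Genes described above are set side by side here, with 95% intervals for gem1 minus wild type. PYL6 had a difference of -4.30 in gem1, -4.14 in the overexpressor and -3.99 in wild type, with an interval of -3.36 to 2.74. For HAI3 the differences were 5.28 in gem1, 5.4 in the overexpressor and 5.07 in wild type (-0.98 to 1.39). CYP707A1 had 3.11 in gem1, 3.12 in the overexpressor and 3.02 in wild type (-0.39 to 0.57), the narrowest of these intervals. MIR824 had 3.11 in gem1, 2.81 in the overexpressor and 2.9 in wild type (-0.65 to 1.07). NAC019 had 5.49 in gem1, 4.78 in the overexpressor and 4.06 in wild type (-0.88 to 3.73). The nicotianamine synthase gene NAS1 had -1.71 in gem1, -2.88 in the overexpressor and -2.77 in wild type, with an interval of 0.04 to 2.08, and the difference did not pass after adjustment. EM6 had 2.41 in gem1, 3.19 in the overexpressor and 3.3 in wild type, with an interval of -2.22 to 0.45 for gem1 minus wild type.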

How the data were processed

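Total RNA of whole seedlings was hybridised to 12 one-colour Cy3 arrays, 1 per sample. The authors deposited log2 expression values per transcript, made with RMA (version unstated), per the submitters' processing notes. RMA subtracts background, equalises arrays and summarises probes, so changes in total RNA cannot be seen. That the scale is log2 was read from the values. Each value rests on 1 to 4 probes per the file headers. No detection or saturation flags were used. The sources used here give neither array design nor genome build. Precision is limited by the number of arrays. The deposited whole-series table held the same 445416 values.

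Of the 37118 features, the brightest over all 12 arrays was kept at each of 32627 loci (3602 had several). Names came from the array annotation and the TAIR10.1 gene table, which held 31993 loci, and 10844 loci had a symbol. limma 3.58.1 (R 4.3.3, lmFit and eBayes, two-sided, Benjamini-Hochberg over all loci, threshold 0.05) fitted 6 group means and the replicate number as a block on all 12 arrays. Replicates carry the numbers 1 and 2 in the labels of each group. In each of 15 group pairs, same-numbered arrays deviated together from their means over loci (r of 0.44 to 0.88, median 0.71), so the numbers were taken to pair the samples. The median SE was 0.14, and 0.20 for a difference of responses.

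The members, the 36 gene lists (454 of 463 entries kept by locus and symbol) and the 45 annotation families were chosen with earlier results of these data known, and 3 family patterns were narrowed after the annotation was read. Lists are described by counts and medians, without a test. Named genes were the 15 largest rises and falls with a symbol and non-overlapping arrays, up to 6 called members per list or otherwise the 2 largest, every core ABA and epidermal fate gene, up to 3 rises and falls per family, the 5 smallest p per difference and GEM. Others (AGP2 beside GEM, AFP1, 3 unnamed loci that fell, TCH genes, seed storage genes, IRT1, RBOHD and PYK10) were picked after their values were seen. Alternatives were no block, the contrast's arrays alone, a variance trend, array weights, a filter on dim loci, a median shift, quantile normalization, all features, a 2-fold minimum, the deposited whole-series table and leaving out arrays singly. Leaving out either array of the same wild-type or overexpressor group gives the same fit of the gem1 response. The fits with an array left out are therefore not all distinct. The fit was tested on simulated data. Figures used matplotlib 3.10.9.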

Additional observations from a re-analysis of the deposited data

Results flagged for a closer look

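The median over the 15 ethylene genes was 0.02 in gem1, with pairs of 0.04 and 0.00, against -0.04 in wild type, with pairs of -0.07 and -0.02, so that neither gem1 pair was below 0 and both wild-type pairs were. The difference was not tested, and all 4 values lie near 0.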

How the results depend on the processing

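The count of 1811 loci changed by ABA in gem1 fell to 475 without the replicate block (pairing by replicate number), to 0 in a fit of the contrast's arrays alone and to 960 with a 2-fold minimum. With 1 array left out it ranged from 348 to 1730, the lone array of a group then being assumed to vary like the others. Under the other 7 settings the count lay between 1811 and 2306. Of these, the fit of all features counted features rather than loci (2097), and the filter on dim loci left fewer loci to test (1943). Of 293 named genes that passed, 90 did without the block, 0 in the contrast's arrays alone and between 74 and 260 with 1 array left out, and none changed sign in any setting run. The differences of responses stayed at 0 loci in every setting, except 1 for gem1 minus wild type (range 0 to 1 over left-out arrays). That 1 was AT2G05915, named after its value was seen, without untreated wild-type replicate 2. Genes that had not passed and changed sign with an array left out ranged over -0.16 to 0.22 (PYL3), -0.10 to 0.07 (SNRK2.8), -0.17 to 0.20 (ABI3), -0.23 to 0.30 (DPBF2), -0.53 to 0.01 (GL2), -0.17 to 0.10 (MYB0), -0.88 to 0.02 (GL3), -0.10 to 0.04 (ETC1), -0.30 to 0.15 (ETC2), -0.45 to 0.05 (CDT1A), -0.24 to 0.08 (RHD6), -0.16 to 0.13 (RSL1), -0.22 to 0.86 (SEP3), -0.10 to 0.46 (PI) and -0.05 to 0.08 (GEM). ETC1 also turned to 0.01 with quantile normalization again. The causes of these moves were not tested beyond the fewer arrays in each such fit. Signals near 15 or above limit what rises can be seen.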
